A study of Mus musculus with 2 samples.

Results

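Cells of the mouse fetal liver were taken from C57BL/6 embryos at e13.5 and measured by CITE-seq, which reads the transcripts and the surface antibodies of the same cell. The population described here lies between the gates usually drawn for erythroid stages: its Ter119 was intermediate, as in the stage called S2, but its CD71 was below the S2 limit. Membership needed a Ter119 antibody count from 25 to 88 and a CD71 count below 763. It also needed a sum of at most 95 over the 5 lineage antibodies (CD11b, CD41, Ly6G/6C, CD45R and CD3e), 300 to 5000 detected genes and at most 9% of UMIs from genes of the mitochondrial genome. Cells with more UMIs of Hbb-y, an embryonic β-globin, than of the adult genes Hbb-bs and Hbb-bt together were left out; Hbb-y marks primitive red cells. By this rule 205 cells were members, of 7863 cells deposited. They made up 2.79% (exact 95% interval 2.42 to 3.19) of the 7355 cells that passed the quality limits and 3.15% (2.74 to 3.60) of the 6508 cells low for the lineage antibodies.

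Transcripts and antibodies were each sequenced in 1 library, and all 7863 cell barcodes occurred in both. The livers of several embryos were pooled, cells depleted of Ter119 were combined again with Ter119-positive cells, and so the shares describe this mixture and not the liver. The cDNA library held 58606632 UMIs, and no cell had fewer than 2510. With 1 library there is no replicate error and no test was possible; intervals cover counting error only, and the antibody values, quartiles and ranges are over cells.

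Red cells form in the fetal liver from progenitors that carry cKit, the receptor for stem cell factor. As they mature they gain CD71, the transferrin receptor through which iron is taken up for heme, and then Ter119. CD44, an adhesion receptor, is lost gradually, and CD71 is lost last, when globin transcripts dominate the cell. A cell with intermediate Ter119 is therefore usually expected to carry high CD71, and these are the cells that do not.

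Because the population is defined by antibody counts, each value rests on the reading of a short DNA barcode on the antibody. The barcodes of the pair of antibodies that drew the gate, and of the pair that was not used by it, are as follows, each of 12 bases and written 5′ to 3′ as the labels give them, with all bases in capitals because the whole run is matched.
Ter119: GAGGCGATTGAT
CD71: CGAAGAAGGAGT
CD44: GTCTAGACTTCG
cKit: AAGCGCTTGGCA
Ter119 and CD71 differ at 10 of the 12 positions, and no pair among the 10 barcodes of the panel differs at fewer than 4.

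The members were chosen by Ter119 and CD71, and these counts are given as a description. The Ter119 count had quartiles of 39, 59 and 74, and CD71 had quartiles of 290, 493 and 650 with a lowest value of 17. In S2, which had the same rules but CD71 at or above the limit (1314 cells), the Ter119 median was 51 and the CD71 median 1614. Of the 1519 cells of intermediate Ter119, 205 were thus members (an interval of 11.8% to 15.3%). Near the CD71 limit, the 18 members within 50 counts below it had a median adult α-globin level of 69727 CPM (UMIs of the gene in 1000000 UMIs of the cell), and the 36 S2 cells within 50 counts above it one of 38172 CPM. Near the lower Ter119 limit, 22 members within 5 counts of it had a median of 13718 CPM, and 44 CD71-low cells just under it one of 9158 CPM. At the upper limit, 17 members had 140647 CPM and 35 Ter119-high cells of low CD71 just over it had 134590 CPM. The members at the lower Ter119 edge thus had lower globin than those at the upper edge, though single cells did not follow this: a member with Ter119 of 26 had 158838 CPM, and the lowest member, at 862 CPM, had Ter119 of 78.

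**Figure D1:**
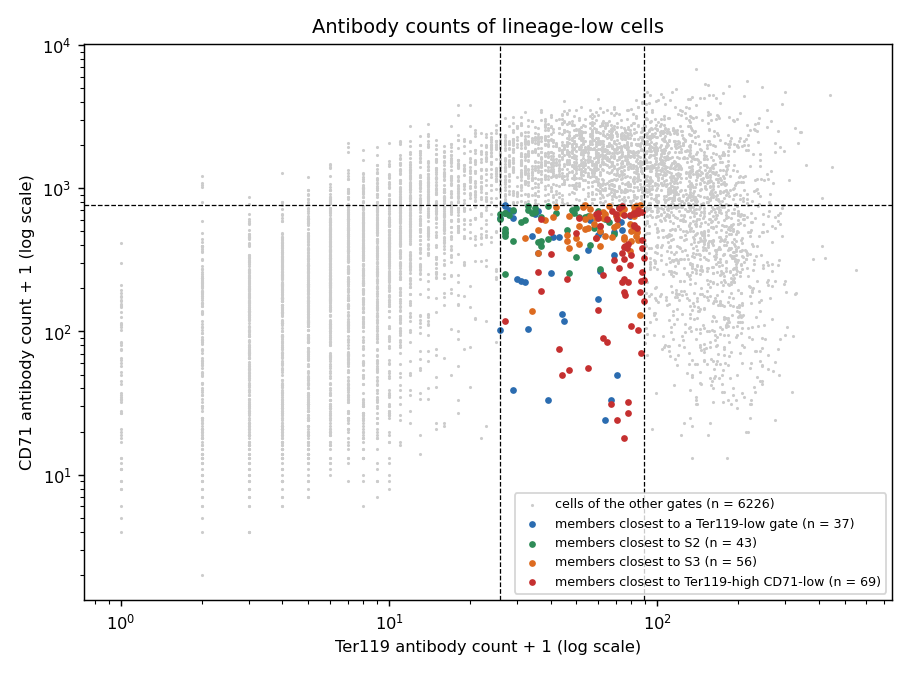
Ter119 (x axis) and CD71 (y axis) antibody counts plus 1 on log scales for the 205 members, coloured by the gate whose transcriptome was closest, and for the cells of the other gates in grey. Dashed lines are the limits of the rule; the members closest to Ter119-high CD71-low lie mostly toward the right limit, with a median Ter119 count of 74.

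To ask which gate the members resembled, each cell was compared with the pooled transcript profile of 6 gates, without globin genes and genes of the mitochondrial genome. The gates were S0-low (Ter119 below 25, CD71 below 230; 1498 cells), S0-medium (CD71 from 230 to the limit; 1073 cells), S1 (Ter119 below 25, CD71 at or above the limit; 616 cells), S2, S3 (Ter119 above 88, CD71 at or above the limit; 852 cells) and Ter119-high CD71-low (873 cells). The members did not form one stage. The closest gate was Ter119-high CD71-low for 69 members (33.7%, 27.2 to 40.6), S3 for 56 (27.3%, 21.3 to 34.0), S2 for 43 (21.0%, 15.6 to 27.2) and 1 of the Ter119-low gates for 37 (18.0%, 13.0 to 24.0). Of the last, 17 were closest to S1, 14 to S0-medium and 6 to S0-low. A Ter119-high gate was closest for 125 members (61.0%, 53.9 to 67.7). Among S2 cells, 52.3% were closest to S2 itself and 32.5% to a Ter119-high gate. The first and second gates lay within 10 log-likelihood units for 9 members. When each cell was thinned to 2000 UMIs, 53.2% of members were closest to a Ter119-high gate, and among cells with at most 5% mitochondrial UMIs 74.7% were. That limit left 158 members. Mitochondrial genes were higher in members than in Ter119-high CD71-low, with a median log2 ratio of 1.36, so the limit itself shifts the mix of stages.

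**Figure D2:**
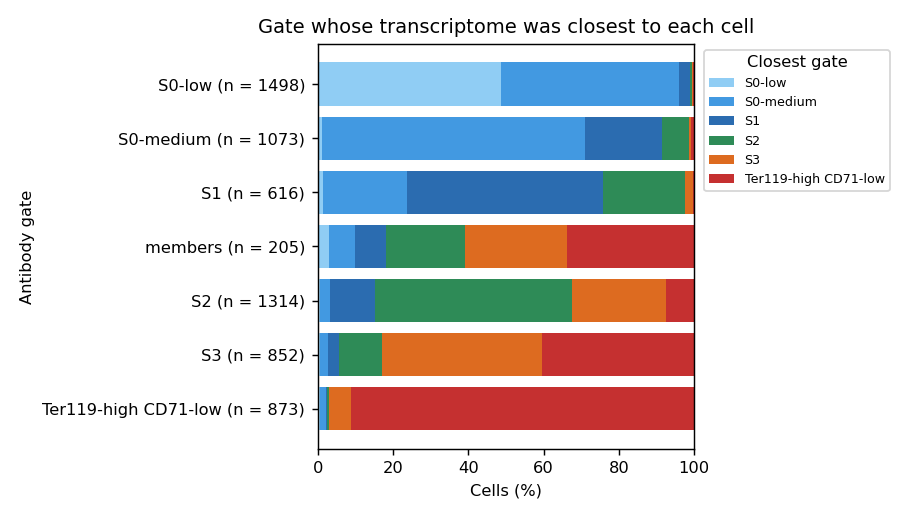
Share of cells (x axis, percent) of each antibody gate (rows) by the gate whose transcript profile was closest, with globin genes left out. The Ter119-high CD71-low profile took 33.7% of members. Cells of a gate were placed in that same gate in 91.1% of cases for Ter119-high CD71-low, 52.3% for S2, 52.1% for S1, 69.9% for S0-medium, 48.7% for S0-low and 42.5% for S3.

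Adult α-globin, which was not used in the rule or in the profiles, followed this order. Hba-a1 and Hba-a2 are nearly identical copies and were summed. The level in the members ran from 862 to 251353 CPM, with quartiles of 26957, 78537 and 138325 CPM. By closest gate, its median was 8752 CPM in the 37 members closest to a Ter119-low gate, 29855 CPM in those closest to S2, 83655 CPM in those closest to S3 and 149962 CPM in those closest to Ter119-high CD71-low. Within the first of these classes the order did not hold. The median was 9121 CPM in the 14 members closest to S0-medium and 7878 CPM in the 17 closest to S1. The 6 closest to S0-low ran from 1485 to 30100 CPM. The lowest of them was the cell of the macrophage-like cluster, and the cell of the hepatocyte-like cluster had 1650 CPM. The ranges of the S2 class (10653 to 55284 CPM) and of the S3 class (42624 to 140613 CPM) overlapped only in part, and the lowest cell of the Ter119-high CD71-low class had 100930 CPM, so that it did not overlap with the S2 class. Globin transcripts together were a median 28.2% of a member's UMIs and reached 83.1%.

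**Figure D3:**
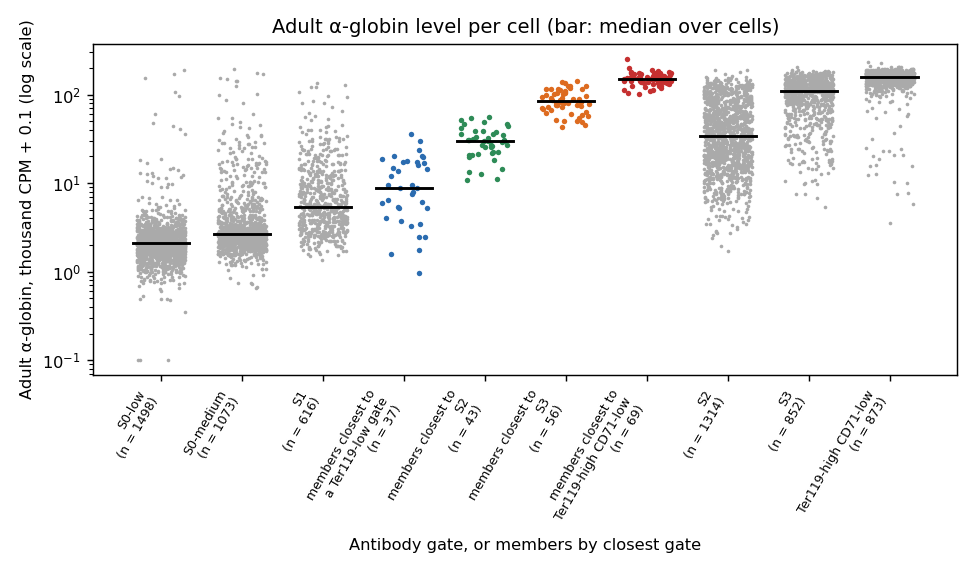
Adult α-globin level per cell (y axis, 1000 CPM plus 0.1, log scale) in the 6 gates (grey) and in the members by closest gate (coloured); black bars are medians over cells. The median of the members rises from 8752 CPM for the pooled Ter119-low gates to 149962 CPM for Ter119-high CD71-low. Within the Ter119-low class it does not rise, with 9121 CPM for S0-medium and 7878 CPM for S1. The α-globin genes were not among those that chose the class.

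As a whole, the members had a mean α-globin level of 82912 CPM, against 46049 CPM in S2, 150888 CPM in Ter119-high CD71-low and 4101 CPM in the 2571 Ter119-low cells of low CD71 (S0-low and S0-medium together). The ratio was 1.80 (1.78 to 1.82) to S2, 0.549 (0.545 to 0.554) to Ter119-high CD71-low and 20.2 (20.0 to 20.5) to Ter119-low CD71-low. The last gate was not erythroid alone. In the clustering given below, 116 of its 2571 cells lay in the hepatocyte-like cluster and 28 in the megakaryocyte-like cluster. A further 11 lay in the granulocyte and monocyte-like cluster and 3 in the macrophage-like cluster. The difference from S2 was smaller among cells of the same closest gate. There, members and S2 cells had α-globin of 30280 and 29167 CPM for S2, 86801 and 78875 CPM for S3, and 150997 and 128235 CPM for Ter119-high CD71-low (ratio 1.18, 1.16 to 1.19). Cells of the Ter119-high CD71-low gate itself with that closest profile had 157603 CPM. After thinning to 2000 UMIs, 86.3% (80.9 to 90.7) of members exceeded the 99th percentile of S0-low cells in α-globin, against 82.3% (80.1 to 84.3) of S2 cells, 19.8% (16.7 to 23.2) of S1 cells and 37.8% (22.5 to 55.2) of the members closest to a Ter119-low gate. These last were 4 of the 6 members closest to S0-low, 5 of the 14 closest to S0-medium and 5 of the 17 closest to S1. Without thinning the share of members was 86.8%.

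The membership depended on the use of raw antibody counts. CD71 was a median 74.4% of a member's antibody counts and 86.9% of an S2 cell's. When each cell's antibodies were scaled to the median total of 1092 and the same limits were applied, 136 cells fell in the gate, and 23 were shared (11.2% of the members and 16.9% of the other set). Of the shared cells, 21 were closest to a Ter119-low gate. Scaling put 67 members in S2, 58 in S3, 27 in Ter119-high CD71-low and 28 above the lineage limit. In the scaled gate the median cKit count was 182.5, 3.68% (1.20 to 8.37) of cells were closest to a Ter119-high gate, and the α-globin ratio to S2 turned to 0.184 (0.181 to 0.187). What follows holds for the gate on raw counts.

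Of the antibodies that the rule did not use, CD44 was ordered over the classes and cKit set apart the class closest to a Ter119-low gate. Median CD44 was 231 in the members closest to a Ter119-low gate, 78 for S2, 52 for S3 and 29 for Ter119-high CD71-low. Median cKit was 206 in the first class and 17, 11 and 12 in the others. A cKit count of at least 100 was found in 25 members, all of them among the 37 closest to a Ter119-low gate (67.6%, 50.2 to 82.0). None of the 43 members closest to S2 and none of the 125 closest to a Ter119-high gate reached it, which allows shares of up to 8.22% and 2.91%. In S2 it was reached by 7.91% (6.51 to 9.51) of cells and in Ter119-low CD71-low by 73.7% (72.0 to 75.4). Over the 205 members, α-globin correlated with CD44 at a Spearman rho of -0.77 (Pearson r -0.61), with cKit at -0.60 (-0.40) and with Ter119 at 0.56 (0.56). With CD71, which ran from 17 to 762, it correlated at -0.21 (-0.24). These are descriptions over cells of 1 library that share depth, and α-globin correlated with the UMI total at -0.52 (-0.44).

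**Figure D4:**
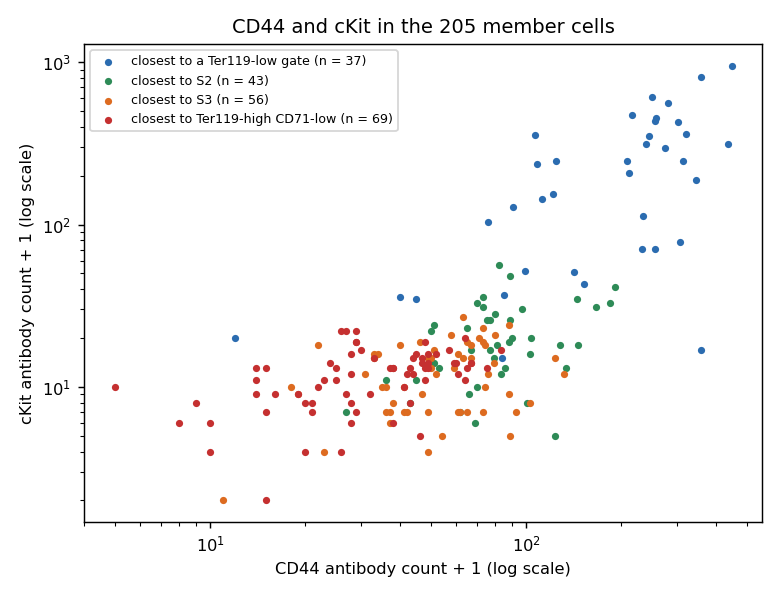
CD44 (x axis) and cKit (y axis) antibody counts plus 1 on log scales in the 205 members, coloured by closest gate. Cells with cKit of at least 100 were all closest to a Ter119-low gate, and the classes are ordered along CD44 with medians of 231, 78, 52 and 29.

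Tfrc, the gene of the CD71 protein, was compared with the protein itself among cells of the same closest gate, because the whole set mixes stages. Tfrc stood at 272 CPM (237 to 311) in the members, 333 CPM in S2, 129 CPM in Ter119-high CD71-low and 135 CPM in Ter119-low CD71-low. The ratio to S2 was 0.818 (0.712 to 0.939), but it was 0.989 (0.841 to 1.16) when globin genes were left out of the depth and 0.584 in UMIs per cell. Among cells closest to S2, the members had a median CD71 count of 608 and S2 cells 1691, whereas Tfrc was 389 CPM (304 to 496) and 341 CPM, a ratio of 1.14 (0.899 to 1.45). Among cells closest to S3, the CD71 medians were 544.5 and 1510, and Tfrc was 313 CPM (242 to 402) in members and 364 CPM in S2 cells, a ratio of 0.859 (0.663 to 1.11). In both classes the rule had set the protein count to 0.36 times that of S2, and the transcript in CPM did not differ beyond counting error. In UMIs per cell Tfrc was lower beyond counting error in members, at 2.0 and 2.52 for S2 (ratio 0.794, 0.632 to 0.987) and 1.27 and 1.67 for S3 (0.758, 0.584 to 0.972). Among cells closest to S1 (17 members), the CD71 medians were 468 and 1712 and the Tfrc ratio was 1.42 (1.01 to 2.0). Among those closest to S0-medium (14 members), the CD71 medians were 473 and 1619 and the Tfrc ratio was 0.855 (0.490 to 1.49). Members were shallower there too, with UMI medians of 8476 and 11857 for S1 and 6233 and 15469.5 for S0-medium. These ratios are in CPM only, and Tfrc in UMIs per cell was not compared for S1 and S0-medium. The other 8 antibodies summed to a median of 125 in members and 208 in S2 cells closest to S2, and the UMI medians were 4372 and 6982. For cells closest to S3 they were 96.5 and 127 antibody counts and 3607 and 4185 UMIs. Whether weaker antibody capture placed these cells below the CD71 limit was not tested.

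The class closest to Ter119-high CD71-low had another pattern in Tfrc. Its CD71 median was 324, close to 280 in the cells of that gate with the same closest profile, and its Ter119 median was 74 against 159. Tfrc was 170 CPM (119 to 235) in these members and 113 CPM in those cells, a ratio of 1.5 (1.06 to 2.1), which was 1.21 (0.844 to 1.70) in UMIs per cell. In S2 cells of the same class Tfrc was 375 CPM, and the ratio of members to them was 0.452 (0.313 to 0.653), and 0.422 (0.286 to 0.610) in UMIs per cell. Here the CD71 count that the rule had set below that of S2 went with a lower transcript than in S2 cells. The other 8 antibodies summed to a median of 75 in these members, 92 in cells of the Ter119-high CD71-low gate and 103 in S2 cells of the class, and the UMI medians were 3217, 3830 and 3275.5.

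**Figure D5:**
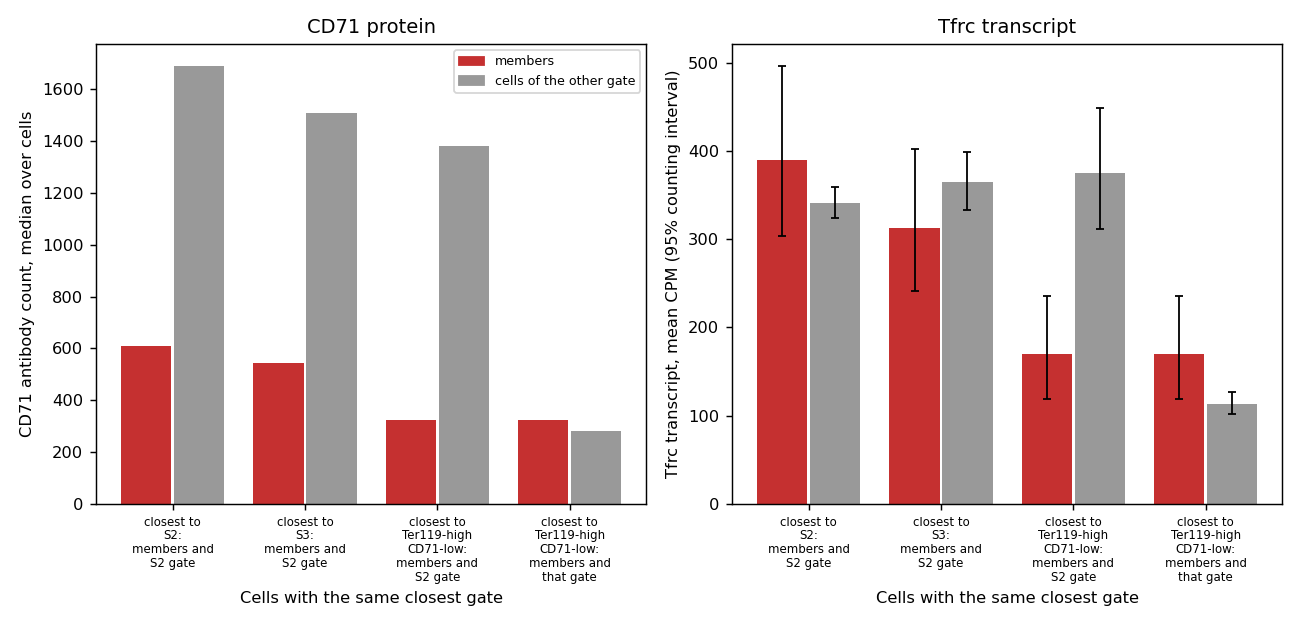
Left, median CD71 antibody count; right, mean Tfrc level in CPM with 95% counting intervals, for members (red) and cells of another gate (grey) with the same closest gate. For the classes closest to S2 and S3 the red CD71 bar is 0.36 times the grey one while the Tfrc intervals in CPM overlap. For the Ter119-high CD71-low class set beside S2 cells, both are lower in members. The CD71 differences from S2 cells were set by the rule.

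Against S2, 36 of 5250 genes tested (0.686%) were at least 2-fold higher in the members and 18 (0.343%) at least 2-fold lower, on the scale of log2 of mean CPM plus 10. The median over all tested genes was -0.25. The split depended on the scaling and on the limits of the gate. Pooled CPM gave 26 higher and 2 lower, UMIs per cell 4 and 192, and a depth without globin genes 131 and 22, with medians over all genes of -0.17, -0.57 and -0.08. Lower genes were the more numerous with Ter119 from 35 to 75 (40 higher and 82 lower), CD71 below 600 (73 and 128) or below 400 (133 and 720), at most 5% mitochondrial UMIs (20 and 81), a lineage sum of at most 50 (21 and 25) and a pseudocount of 1 CPM (119 and 176). Of the 10 genes furthest above S2, Ttr, Afp, Alb and Apoa1 are hepatocyte genes and are described with the cell that held most of them. Among the other 6, Xpo7, an exportin, had 199 CPM (167 to 236) and a ratio of 4.57 (3.69 to 5.66), and Tcp11l2 had 203 CPM (170 to 241) and a ratio of 4.17 (3.37 to 5.16). Bpgm, the enzyme that makes 2,3-bisphosphoglycerate, stood at 3.61 (3.15 to 4.13), the membrane protein gene Tmcc2 at 3.09 (2.79 to 3.42), Sowaha at 3.46 (2.49 to 4.82) and the ubiquitin ligase gene Mkrn1 at 2.74 (2.51 to 2.98). All 6 were also above S2 under the other scalings, with Xpo7 between 1.56 and 2.39 on the log2 scale and Mkrn1 between 0.84 and 2.29. Each of the 6 was highest in 1 class: Xpo7 was 507 CPM in members closest to Ter119-high CD71-low, 29.6 CPM in those closest to S3 and 7.1 CPM in those closest to S2, and Tcp11l2 was 581, 13.3 and 6.2 CPM. Tmcc2 was 1979, 282 and 69.1 CPM, and Mkrn1 2016, 499.8 and 259 CPM, in the same order. As these genes are part of the profiles, their values by class are a description. Of the 17 late erythroblast genes tested, 5 were at least 2-fold higher and 0 lower, with a median of 0.38, which was -0.18 in UMIs per cell. Of the 8 early progenitor genes tested, 0 passed in either direction, with a median of 0.76 against -0.25 over all genes. Without globin in the depth, 3 of these 8 were higher and 0 lower. Alas2, the first enzyme of heme synthesis in red cells, had a ratio of 1.74 (1.62 to 1.87) and Slc4a1, the band 3 anion exchanger, 1.06 (0.957 to 1.17).

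The 10 genes furthest below S2 held several with a part in DNA replication beside others. Cdc6, which loads the replicative helicase, had 28.5 CPM and a ratio of 0.325 (0.222 to 0.477). The ratio was 0.312 (0.175 to 0.557) for Cdc45, 0.446 (0.360 to 0.552) for the helicase subunit gene Mcm3, 0.452 (0.369 to 0.554) for the clamp loader gene Rfc4 and 0.426 (0.311 to 0.585) for Cdk2. Prkag1 (0.342), the γ-tubulin gene Tubg1 (0.351) and Dld (0.424), which are no replication genes, were also among the lowest. Of the 18 S phase genes tested, 2 were at least 2-fold lower and 0 higher, with a median of -0.85 against -0.25 over all genes. In UMIs per cell 13 of 18 were lower, with a median of -1.13 against -0.57. Of the 18 G2 and mitosis genes, 0 passed in either direction, with a median of -0.30. Summed S phase genes were 3585 CPM in members and 6254 CPM in S2. By class they were 6087 CPM in members closest to S2 and 7312 CPM in S2 cells of that class (ratio 0.832, 0.786 to 0.882), 4910 and 5963 CPM for S3 (0.823, 0.771 to 0.879) and 936 CPM for Ter119-high CD71-low, where the cells of that gate had 894 CPM (1.05, 0.910 to 1.20). Against S2 cells of that class the ratio was 0.732 (0.620 to 0.865). In members closest to a Ter119-low gate, the sum was 3616 CPM. The S phase genes are part of the profiles too, so their sums by class are a description. Ribosomal protein genes summed to 101957 CPM and 145366 CPM, and 0 of 75 passed in either direction. Heme synthesis (0 of 8), iron handling (0 of 14), membrane skeleton (0 of 11) and erythroid transcription factor genes (0 of 12) passed in neither direction, with medians of -0.26, -0.22, -0.09 and -0.18, and 1 of 13 red cell membrane genes was higher, with a median of -0.13.

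Against Ter119-high CD71-low, 1735 of 5250 genes (33.0%) were at least 2-fold higher in the members and 21 (0.4%) lower, together 33.4%, with a median over all genes of 0.81. Globin took a median 66.5% of UMIs in that gate. With globin genes left out of the depth the counts were 184 and 109 and the median 0.23. Of the ribosomal protein genes 68 of 75 were higher, with a median of 1.64, but only 5 of 75, with a median of 0.61, without globin in the depth. Of the S phase genes 16 of 18 were higher, with a median of 1.38, and 2 of 18, with a median of 0.65, without globin in the depth. Slbp, which binds histone mRNA in S phase, was 748 and 169 CPM (ratio 4.42, 3.95 to 4.95), and Ccnd3, the cyclin of late erythroid divisions, 494 and 119 CPM (4.13, 3.61 to 4.73). Without globin in the depth they were 1.21 and 1.06 higher on the log2 scale. Tmem14c, a mitochondrial porphyrin transporter gene, was 2.39 higher on the log2 scale and 1.38 without globin in the depth. The 21 lower genes included the late genes that were above S2: Bpgm at 0.368 (0.328 to 0.414), Tmcc2 at 0.375 (0.343 to 0.410), Xpo7 at 0.367 (0.309 to 0.437) and Tcp11l2 at 0.379 (0.318 to 0.452). These 2 comparisons share the member cells, and the members lie between both gates for each of these genes. Hemgn, an erythroid nuclear factor, was 1130 CPM in members, 1327 CPM in S2 and 569 CPM in Ter119-high CD71-low. Hemgn is part of the profiles, so its values by class are a description. Within the members it peaked in the S3 class, at 2228 CPM (2033 to 2441), and was 537 CPM in the Ter119-high CD71-low class.

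Of the embryonic globins, Hbb-y was part of the rule and is not read. Hbb-bh1 was 746 CPM in members and 1728 CPM in that gate (0.432, 0.394 to 0.473), and Hba-x was 11.2 and 45.1 CPM (0.248, 0.134 to 0.461). At the same closest gate the Hbb-bh1 ratio was 0.852 (0.765 to 0.95), and Hba-x, with 4 UMIs in these members, was 0.297 (0.108 to 0.821). Against S2, Hbb-bh1 was 1.59 (1.45 to 1.75) and Hba-x 0.536 (0.287 to 1.0), so that the lower Hba-x was not clear of counting error.

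Against Ter119-low CD71-low, 238 genes (4.53%) were at least 2-fold higher and 1690 (32.2%) lower, with a median over all genes of -0.77. In UMIs per cell the counts were 80 and 3419 and the median -1.20, and without globin in the depth 449 and 866 and -0.42. The Ter119-low gate held hepatocyte-like and other non-erythroid cells, as given above, and 14 of 15 hepatocyte genes were lower in the members. Among late erythroblast genes 16 of 17 were higher (median 2.90), as were 8 of 8 heme synthesis genes (1.68), 7 of 11 membrane skeleton genes (1.70) and 9 of 13 red cell membrane genes (1.24). In UMIs per cell these counts were 14, 3, 5 and 4. Alas2 was 25.7 (23.1 to 28.5) times and Slc4a1 17.0 (14.8 to 19.6) times as high. Of 8 early progenitor genes 7 were lower (median -1.52), and 4 without globin in the depth (median -1.16): Myb, a factor of immature blood cells, was 20.5 and 112 CPM (0.183, 0.121 to 0.278), and Cd34 11.2 and 50.6 CPM. The genes furthest below on the log2 scale included Cdk6, at -2.52, the polyamine enzyme gene Srm, at -2.37, and Meg3, at -2.66. As a description, since they are part of the profiles, the early progenitor genes summed to 855 CPM (722 to 1009) in members closest to a Ter119-low gate, 103 CPM for S2, 82.5 CPM for S3 and 120 CPM for Ter119-high CD71-low. Kit itself was 39.5 CPM in the first class, from 9 UMIs, against 7.9 CPM in S1 and 62.6 CPM in S0-low.

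The members were also read within 3 ranges of CD71, as a description. Below 230 (39 cells) the median α-globin level was 151203 CPM and globin took 68.8% of UMIs. From 230 to under 500 (66 cells) the level was 74740 CPM, and from 500 to the limit (100 cells) 65911 CPM. In the lowest range 64.1% (47.2 to 78.8) were closest to Ter119-high CD71-low, none was closest to S2 (up to 9.03%) and 12 were closest to a Ter119-low gate. These 12 included the cells with most hepatocyte and most macrophage UMIs, which are given with the genes of other cell types. In the highest range 29.0% (20.4 to 38.9) were closest to S2, 36.0% (26.6 to 46.2) to S3 and 22.0% (14.3 to 31.4) to Ter119-high CD71-low. Tfrc was 175 CPM (113 to 263), 307 CPM (242 to 387) and 287 CPM (238 to 345) in the 3 ranges, which were cut on the protein itself, and the interval of each range overlapped those of the others. Slbp was 179, 612 and 1059 CPM, and Hemgn 364, 1148 and 1417 CPM. Late genes did not run one way over the ranges: Bpgm was 798, 370 and 330 CPM, Tmcc2 880, 905 and 663 CPM, and Xpo7 148 CPM (90.1 to 232), 250 CPM (188 to 327) and 185 CPM (142 to 239).

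Among genes of other cell types, the hepatocyte and macrophage lists each leaned on 1 cell. The hepatocyte genes appeared raised against S2, with 7 of 15 at least 2-fold higher and a summed level of 1610 against 561 CPM, and Ttr, Afp, Alb and Apoa1 were among the 10 highest genes. One member held 602 of the 1155 hepatocyte UMIs and the next 11, although 177 members had at least 1. It had 3030 UMIs, a CD71 count of 38 and S0-low as closest gate, and it was the 1 member in a cluster led by hepatocyte genes. Without it 0 of 15 were past 2-fold, the summed level was 644 CPM (ratio to S2 1.15, 1.04 to 1.26), and Ttr was 44.5 against 41.3 CPM. Of the macrophage genes, 8 of 14 had a UMI, with C1qa the most abundant at 8 UMIs and Cd68, Mrc1, Cd5l, Timd4 and Cd163 among those at 0. Another cell, with 3367 UMIs, held 13 of the 29 UMIs. It also had S0-low as closest gate and was the 1 member in a cluster led by macrophage genes. Leaving out both cells, a choice made after seeing the data, left 21 genes higher and 18 lower against S2 and an α-globin ratio of 1.82 (1.80 to 1.83). Granulocyte and monocyte genes summed to 220 CPM, megakaryocyte genes to 69.5 CPM and endothelial genes to 46.4 CPM. They were found in 107, 56 and 38 members, and the most abundant were S100a8 (35 UMIs), Pf4 (29 UMIs) and Egfl7 (50 UMIs). Against S2, 0 of 11, 0 of 6 and 0 of 1 genes tested passed 2-fold in either direction, with medians of 0.47, -0.03 and 0.16. Egfl7 alone gave 50 of the 59 endothelial UMIs, and Cdh5, Tek, Stab2, Lyve1, Plvap and Cldn5 were at 0. For none of the lists of other cell types was the presence of a UMI set against a background of free transcripts. Mesenchymal genes gave 25 UMIs, led by Dlk1 with Col3a1 and Dcn at 0, lymphoid genes 8 UMIs with Cd79a and Cd3e at 0, and mast cell and basophil genes 6 UMIs, of which 5 were Cpa3 and 3 lay in 1 cell. An IgG control count was present in 6 of 205 members and in 34 of 1314 S2 cells.

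Called doublets were 5 of 205 members (2.44%, 0.797 to 5.60), against 1.45% (0.873 to 2.25) of S2, 4.34% (3.08 to 5.94) of S3 and 0.802% (0.323 to 1.65) of Ter119-high CD71-low. Of the doublet calls among members, 4 were among the 37 closest to a Ter119-low gate (10.8%, 3.03 to 25.4), and 6 of these 37 (16.2%) lay above the 90th percentile of UMIs of all kept cells (14596), against 3.90% of all members. This class had high cKit, and the part of doublets in it was not tested.

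Clustering of all 7355 cells by transcripts, in which globin genes took part, spread the members over 12 of 17 clusters. Cluster 0, led by Cdkn2c, Cdkn2d and Dusp1 with Hemgn among its top 10 genes, held 55 members (26.8%, 20.9 to 33.5). Cluster 10, led by Xpo7, Tmcc2 and Tcp11l2, held 30, and the late erythroblast-like cluster 11, led by Bpgm and Hbb-bs, held 28. Cluster 2, led by Acp5, Mrap and Slc39a8 with Slbp and Ccnd3 among its top 10 genes, held 29. Cluster 9, led by Hist1h2bc and Ube2c, held 22. Of the Ter119-high CD71-low cells, 335 were in cluster 10 and 360 in cluster 11, and of the S2 cells 599 were in cluster 2 and 413 in cluster 0. No cluster was made up mainly of members.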

How the data were processed

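The authors deposited UMI counts per gene and cell from a 10x Genomics cDNA library, mapped to mm10 with Cell Ranger, and raw counts per antibody barcode and cell assigned with CITE-seq-Count. The submitters' processing notes also name Seurat. Neither table was normalized. Whether antibody reads were collapsed to molecules is not given in the sources used here. Reads that matched no barcode were 1.05% of the antibody counts.

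Members and other gates were set on raw antibody counts. The members and the 23 gene lists were chosen with earlier results of these data known. Levels are means over cells of CPM, with weighted Poisson 95% intervals; shares have exact Clopper-Pearson intervals. Genes with at least 1000 UMIs over kept cells were compared as log2 of mean CPM plus 10. The closest gate is that of highest multinomial likelihood, each reference cell being scored without its own counts. Named are globin genes, genes of antibody targets, list members and the 10 highest and lowest genes of each comparison, without unnamed gene models. Doublets were called with Scrublet (expected rate 6%, 128 cells called) and kept, with their removal as an alternative. Leiden clusters used 2000 variable genes, 16 components, 30 neighbours and resolution 0.8; clusters were named only where 3 or more of their 10 leading genes were markers. Correlations are over cells. Ratios and placement were tried on simulated Poisson counts drawn from pooled profiles of the gates. Such counts hold no spread between cells of a gate, so they do not measure how well real cells are placed. The shares of real cells placed in their own gate are given with the placement. Alternatives changed the gates, filters, doublets, antibody scaling, depth, pseudocount and thinning. Scanpy 1.11.5, scipy 1.17.1 and numpy 2.4.6 were run under Python 3.11.15 with seed 7, and figures were drawn with matplotlib 3.10.9. Results for a few genes are not reported here.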

Additional observations from a re-analysis of the deposited data

How the results depend on the processing

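The results rest on 1 library of pooled embryos, so nothing here measures the spread between animals or libraries, and no result was tested. No paired analysis was possible because there is 1 library of each kind and no result comes from a test. Of 119 alternative values, 56 moved by less than the counting interval (counts of genes and of member cells by less than 1.5 times), 62 moved and 1 reversed. Where no cause is given, the cause was not tested.

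Antibodies scaled to the median total gave 136 members and the 1 reversal, an α-globin ratio to S2 of 0.184. The ratio was then 0.0884 to Ter119-high CD71-low and 5.16 to Ter119-low CD71-low, Tfrc to S2 was 0.622, elevated α-globin was found in 56.6% of cells, 3.68% were closest to a Ter119-high gate, and 1542, 3933 and 66 genes passed 2-fold against S2, Ter119-high CD71-low and Ter119-low CD71-low.

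Narrower gates kept every direction of the α-globin ratios. Ter119 from 35 to 75 left 125 members, with α-globin ratios of 0.557 to Ter119-high CD71-low and 20.5 to Ter119-low CD71-low, elevated α-globin in 92.0% and 122 genes past 2-fold against S2. CD71 below 600 left 131 members, with α-globin ratios of 1.91, 0.584 and 21.5 to S2, Ter119-high CD71-low and Ter119-low CD71-low and 201 genes against S2. CD71 below 400 left 72 members, with ratios of 2.28, 0.695 and 25.6, Tfrc at 0.692, and 853 genes against S2 and 1145 against Ter119-high CD71-low. A lineage sum of at most 50 gave α-globin ratios of 0.570 and 18.8 to the last 2 gates. At most 5% mitochondrial UMIs gave 1.83, 0.657 and 20.6, Tfrc at 0.708, 74.7% closest to a Ter119-high gate, and 101 and 1041 genes against S2 and Ter119-high CD71-low. Without called doublets the α-globin ratios to the last 2 gates were 0.555 and 20.5. Without the Hbb-y rule they were 1.82 to S2 and 0.564 to Ter119-high CD71-low.

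Pooled CPM gave α-globin ratios of 1.90, 0.439 and 21.1 and 28 genes against S2 and 1173 against Ter119-low CD71-low. UMIs per cell gave 1.31, 0.509 and 12.0, Tfrc at 0.584, and 196 and 3499 genes. A depth without globin genes gave 3.01, 0.418 and 35.9, Tfrc at 0.989, and 153 and 293 genes against S2 and Ter119-high CD71-low. A pseudocount of 1 CPM gave 295 and 3330 genes against these 2. The 95th percentile of S0-low cells as limit put elevated α-globin at 96.1%, and thinning every cell to 2000 UMIs put the share closest to a Ter119-high gate at 53.2%. Leaving out the members highest in hepatocyte and in macrophage genes, chosen after seeing the data, gave α-globin ratios of 1.82 to S2 and 0.555 to Ter119-high CD71-low.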

Other observations

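Stress and antioxidant genes were read in the members for completeness. Of 17 genes of the p53 and stress list, 10 had a UMI in the members and 5 were tested; none of these passed 2-fold against S2. Gadd45a, a gene induced by growth arrest, gave 378 UMIs and was the most abundant, and Cdkn1a, Atf3 and Fos were at 0. The sum of the list was 717 CPM in the members, 584 CPM in S2 and 941 CPM in Ter119-high CD71-low. Within the members it was 475 CPM in those closest to S2 and 1101 CPM in those closest to Ter119-high CD71-low, a description because these genes are part of the profiles. Gadd45a was the largest part of the list's sum, at 467 CPM in the members, 262 CPM in S2 and 815 CPM in Ter119-high CD71-low. The median over the 5 genes ran opposite to the sum, at -0.13 against S2 and 0.79 against Ter119-high CD71-low (1 higher and 0 lower), on the log2 scale. These medians lay near those over all tested genes, -0.25 and 0.81. Of all tested genes, 33.0% were higher and 0.4% lower against Ter119-high CD71-low. Antioxidant genes, of which Gpx1 was the most abundant, summed to 14058, 12455 and 15652 CPM in the same 3 gates. Here too the median over the 9 genes tested was opposite in sign to the sums, at -0.19 against S2 (0 higher and 0 lower) and 0.63 against Ter119-high CD71-low (2 higher and 0 lower). It had the sign of the medians over all tested genes, -0.25 and 0.81, and 2 of 9 is a smaller share than the 33.0% of all genes. Without globin in the depth the antioxidant medians were 0.20 and -0.11, and those of the p53 and stress genes 0.01 and 0.09, against -0.08 and 0.23 over all tested genes.

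Cells outside the rule also had these antibody values. Of the 847 kept cells above the lineage limit, 140 (16.5%, 14.1 to 19.2) had Ter119 in the intermediate range and 97 of them CD71 below the limit. Of the 77 lineage-low cells in which Hbb-y exceeded adult β-globin, 14 (18.2%, 10.3 to 28.6) would have fallen in the gate.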
